A study of Mus musculus with 26 samples.

Results

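The 29 genes described here encode proteins of the myelin sheath and of mature oligodendrocytes, the cells that wrap axons in the central nervous system. They were taken by name, and all 29 symbols had a row in a table of 54532 mouse genes; no threshold on a measured value was part of the rule, though the list was drawn up with earlier results of these data known. The study compared RNA of astrocytes in 3 parts of the mouse visual pathway, obtained by immunoprecipitation (IP) from untreated animals at day 0. The groups were 6 retina IP libraries, 6 libraries of retinal input RNA, 7 IP libraries of the optic nerve head (ONH) and 7 of the optic nerve proper (ONP), the myelinated stretch of the nerve. Freshly removed eyes were the source of RNA and poly(A) RNA was sequenced. The animals' age, sex and strain and the tag or driver behind the IP are not given in the sources used here, and no input libraries of the nerve are analysed here, so enrichment by IP cannot be measured in the nerve. No label says that the libraries of a group came from separate animals, so a p-value speaks only to how much these libraries varied, which may be technical.

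Myelin is built from stacked membrane that is rich in galactolipids and held together by a small set of very abundant proteins. The factors Sox10 and Myrf drive the genes for these products, and enzymes such as Ugt8a and Fa2h make the galactolipids. In the mouse, axons of retinal ganglion cells run bare through the retina and the nerve head and acquire their sheath in the nerve proper. The genes are therefore known as markers of oligodendrocytes, not of the astrocytes named by the labels. In bulk libraries like these, fewer cells of a type and less RNA per cell cannot be told apart.

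Promoter sequences are shown because the 29 genes include Sox10 and Myrf, factors of the 2 kinds whose motifs were searched for. Whether such sites play a part in the levels was not tested. RefSeq promoters (build GRCm38.p6) were matched for 23 of the 29 genes, and the 250 bases before each start were searched on both strands. The Myrf motif (CTGGCAC or CTGGTAC) occurred in 7 of 34 promoters of these genes (20.6%, 6 genes) and in 5.93% of all 32851 promoters of that length. The Sox motif (ACAAAG or ACAATG) occurred in 14 of 34 (41.2%, 11 genes) against 25.2% of all promoters. Both stood in 4 promoters (11.8%, the genes Mag, Cnp and Hapln2) against 1.55% of all. Several of the 34 promoters belong to 1 gene and overlap, a motif match is not evidence of binding, and these shares were not tested.

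The promoters of 5 genes are given 5′ to 3′ on the strand of the gene, with Myrf and Sox motifs in capitals. They lie at chr7:30914923-30915172 (Mag, minus strand), chr11:100574689-100574903 (Cnp, plus), chr17:37023399-37023648 (Mog, minus), chr9:21248444-21248693 (S1pr5, minus) and chr9:120149492-120149706 (Mobp, plus). Mag and Cnp hold both motifs, Mog holds the Myrf motif alone, S1pr5 holds 2 overlapping Myrf motifs that read alike on either strand, and Mobp holds 6 Sox motifs.
Mag: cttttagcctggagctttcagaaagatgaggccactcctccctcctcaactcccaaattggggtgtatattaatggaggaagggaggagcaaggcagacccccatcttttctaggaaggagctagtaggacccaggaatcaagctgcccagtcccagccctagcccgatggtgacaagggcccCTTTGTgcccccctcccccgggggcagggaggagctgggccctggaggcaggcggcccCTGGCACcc
Cnp: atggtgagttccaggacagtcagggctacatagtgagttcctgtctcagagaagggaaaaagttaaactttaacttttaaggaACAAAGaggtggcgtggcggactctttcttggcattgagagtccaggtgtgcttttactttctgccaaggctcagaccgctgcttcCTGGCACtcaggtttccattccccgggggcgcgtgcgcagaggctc
Mog: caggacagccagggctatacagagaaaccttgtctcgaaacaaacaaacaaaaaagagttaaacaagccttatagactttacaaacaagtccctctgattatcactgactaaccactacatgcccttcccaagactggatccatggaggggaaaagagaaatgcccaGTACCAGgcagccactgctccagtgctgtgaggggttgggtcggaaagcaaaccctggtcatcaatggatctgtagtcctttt
S1pr5: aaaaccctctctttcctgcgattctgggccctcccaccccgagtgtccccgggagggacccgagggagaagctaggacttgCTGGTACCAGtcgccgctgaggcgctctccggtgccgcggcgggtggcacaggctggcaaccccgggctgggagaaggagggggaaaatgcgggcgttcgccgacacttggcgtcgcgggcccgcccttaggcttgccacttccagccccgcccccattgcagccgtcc
Mobp: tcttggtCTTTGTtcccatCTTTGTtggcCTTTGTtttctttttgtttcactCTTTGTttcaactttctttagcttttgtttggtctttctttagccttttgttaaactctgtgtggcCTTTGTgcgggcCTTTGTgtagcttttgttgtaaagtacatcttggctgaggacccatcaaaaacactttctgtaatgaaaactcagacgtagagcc

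Library totals ran from 11164619 to 27431026 estimated counts. Levels are given in CPM, the usual unit of counts relative to the library total, scaled by the trimmed mean of M-values (TMM), and a gene is said to pass where the Benjamini-Hochberg adjusted p of edgeR's quasi-likelihood test, taken over all genes tested, was below 0.05. All retinal libraries and replicate 7 of ONH and of ONP were in batch 2, and the other 12 nerve libraries in batch 1. The sample descriptions of the replicate 7 libraries carry the word Adaptor where those of the others carry a number. ONH replicate 7 stood apart, with a summed level of 10 rod photoreceptor genes of 54624 CPM against 111.8 to 1023 CPM in the other ONH libraries. Both replicate 5 libraries of the nerve also stood apart: their 12 astrocyte genes summed to 34754 CPM (ONH) and 42025 CPM (ONP), the highest in each group, and their 10 microglia genes to 279.2 and 357.8 CPM, the lowest. The nerve libraries therefore held astrocyte markers throughout, at 7287 to 34754 CPM in ONH and 13188 to 42025 CPM in ONP.

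Myelin genes took up a large part of the nerve libraries and very little of the retinal ones. The 29 genes together held 0.0335% to 0.0635% of counts in retinal input and 0.0539% to 0.0750% in retina IP. In ONH they held between 2.75% and 6.01% (median 3.35%), and in ONP between 3.21% and 9.74% (median 7.45%). Mbp, which encodes myelin basic protein and compacts the cytoplasmic faces of the sheath, alone held 1.40% to 3.37% of ONH counts and 1.71% to 5.26% of ONP counts. The share in every nerve library lay above that in every retinal library, while the ranges of ONH and ONP overlapped. The ONH libraries thus held myelin genes, although axons are described above as bare in the nerve head. The sample titles do not give the extent of the tissue taken, and the reason for these levels was not tested.

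**Figure D1:**
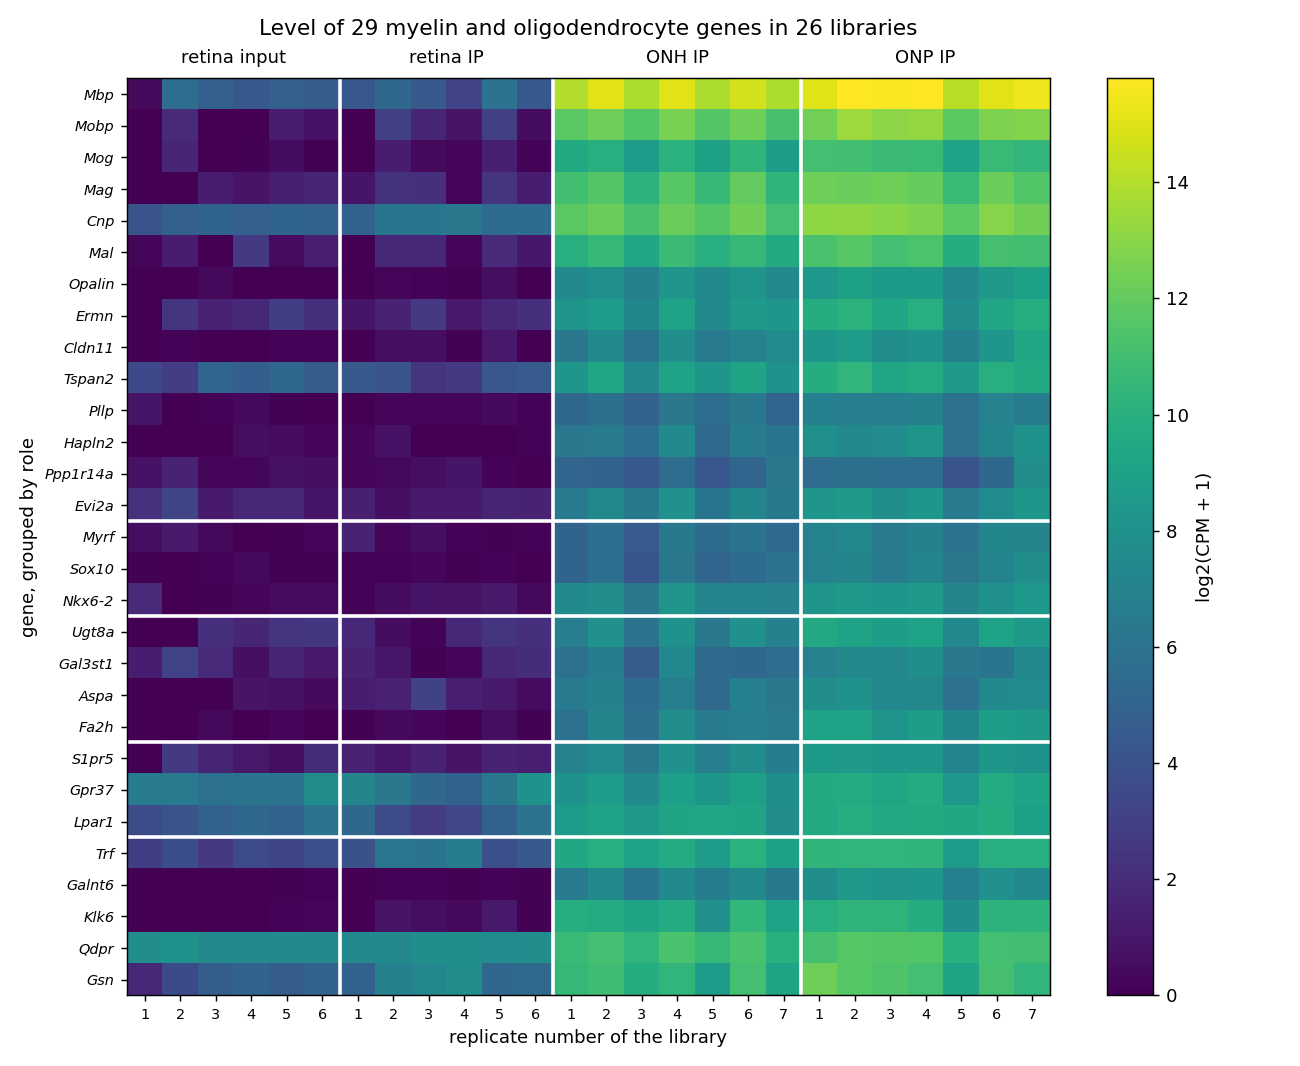
Level of each of the 29 genes (rows, grouped by role) in each of the 26 libraries (columns, by group and replicate number), as log2(CPM + 1). The nerve columns are bright for nearly all rows, the retinal columns are dark apart from 8 genes with a mean of 10 CPM or more, and ONP replicate 5 is dimmer than its neighbours.

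Per kilobase of exon, Mbp was the most abundant of the 29 in ONP at 4957 ± 1694 CPM per kb (SD, n = 7). Cnp, the gene of a sheath phosphodiesterase, followed at 1927 ± 564, then Qdpr (1324 ± 424), Mobp (1108 ± 391), Mag (999 ± 316), Mog (939 ± 312), Mal (795 ± 256), Gsn (785 ± 456) and Klk6 (658 ± 239 CPM per kb). The ranges of 1 SD around Mbp and Cnp did not overlap, but from Cnp to Klk6 each gene overlapped its neighbour in this order. The lowest level was that of the transcription factor Myrf (14.3 ± 4.18 CPM per kb), and Sox10 (43.5 ± 14.6) and the acetate-releasing enzyme gene Aspa (30.4 ± 10.6) were also near the bottom. The length used was the union of all annotated exons of a gene, not that of a transcript, and the order depends on it. By CPM alone, Mobp (7585 ± 2679) stood above Qdpr (2368 ± 758) in ONP.

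The design compares retina IP with ONH IP and with ONP IP, which asks how the astrocyte populations of the 3 regions differ. Retina IP replicates 1, 5 and 6 held 6740, 7665 and 9736 CPM of the 12 astrocyte genes, against 4037 to 6653 CPM in retinal input. Of the 29 genes, 28 were lower in retina IP than in ONH IP, against 21.1% of the 16355 genes tested. Against ONP IP all 29 were lower, beside 19.9% of genes tested. The median log2 difference was -7.88 from ONH (236-fold lower) and -8.87 from ONP (469-fold lower), and the medians of all genes were -0.13 and -0.10. These comparisons share the retina IP libraries. All retinal libraries are in batch 2, so with the batch term these differences lean on replicate 7 of ONH and of ONP. Their p-values do not weigh all nerve libraries alike. Without ONH replicate 7, 28 of 29 passed as lower than ONH (2478 of 16145 genes tested) and 29 as lower than ONP (2800). Without ONP replicate 7, 28 passed as lower than ONH (2262 of 16264). Every retina IP library lay below every ONH library for 28 of 29 genes (14.1% of all genes), and below every ONP library for all 29 (16.5% of all genes). With batch 2 alone, where each nerve region has 1 library whose spread is assumed to equal that of the retina, 24 of 29 passed against ONH (background 3.42%) and 28 of 29 against ONP (4.87%).

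Among the 14 sheath and adhesion genes, all 14 were lower in retina IP in both comparisons. Mbp ranged from 7.86 to 63.2 CPM in retina IP (median 19.8), from 14499 to 34996 in ONH (median 15792) and from 17541 to 56521 in ONP (median 43738). The retinal and nerve libraries did not overlap (log2 difference -9.36 ± 0.64 SE from ONH, edgeR adjusted p = 2.87e-09, and -10.29 ± 0.65 from ONP, 6.75e-10). Opalin, which encodes an oligodendrocyte membrane protein, had the largest log2 difference of the 29 in either comparison (-10.68 ± 0.61 and -11.51 ± 0.61), with 17 counts in all 6 retina IP libraries together and 43647 in the 7 of ONP. Mog, the gene of an outer sheath glycoprotein, lay between 0.0356 and 1.67 CPM in retina IP and between 428.7 and 1286 in ONH. Cldn11, which encodes the tight junction protein of the sheath, averaged 0.359 CPM in retina IP, 136 in ONH and 325 in ONP. The smallest differences in this role were those of Tspan2, a tetraspanin gene (14.2 CPM in retina IP, log2 difference -4.46 from ONH), and of Cnp (55.4 CPM, -5.42).

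The 3 transcription factor genes and the 4 genes of lipid and acetate enzymes were also all lower in retina IP. Sox10, a factor that drives myelin genes, gave 12 counts over the 6 retina IP libraries, with a level of 0 to 0.147 CPM. It ranged from 17.5 to 78.4 CPM in ONH (-9.46 ± 0.48, edgeR adjusted p = 5.65e-11). Myrf, required for sheath formation, averaged 0.495 CPM in retina IP, and the homeobox gene Nkx6-2 averaged 0.591 CPM. Fa2h, which makes hydroxylated fatty acids for galactolipids, differed by -8.90 from ONH. The galactolipid synthase gene Ugt8a (-5.78), the sulfatide synthase gene Gal3st1 (-5.44) and Aspa (-5.17) differed by less on this scale. Their retina IP means were 2.18, 1.47 and 2.32 CPM.

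By the median, the 3 receptor genes (-3.34) and the 5 other enzyme and binding protein genes (-3.53) differed least from ONH, although S1pr5 (-6.23) and 2 of the enzyme genes named at the end differed by more. Gpr37, an orphan receptor gene of oligodendrocytes, ranged from 28.97 to 273 CPM in retina IP (median 78.2), from 182 to 499 in ONH (median 326) and from 346 to 836 in ONP (median 796.5). Its retina IP and ONH libraries overlapped and it did not pass (-1.20 ± 0.58, edgeR adjusted p = 0.1205). It passed against ONP (-2.21 ± 0.56, adjusted p = 0.00496), but not without ONP replicate 7 (adjusted p = 0.1038) or in batch 2 alone (0.155). Lpar1, a lysophosphatidic acid receptor gene, averaged 25.9 CPM in retina IP and 488 in ONH (-3.34 ± 0.55, adjusted p = 0.000142). Qdpr, which encodes an enzyme that recycles tetrahydrobiopterin, had the narrowest spread of these in retina IP (169 to 232 CPM) and lay at 1019 to 2419 in ONH (-2.59 ± 0.32, adjusted p = 6.29e-06). Gsn, the gene of the actin-severing protein gelsolin, ran from 28.99 to 211 CPM in retina IP and from 412 to 2186 in ONH (-2.64 ± 0.68, adjusted p = 0.0058), and did not pass in batch 2 alone (0.193) or where only these 2 groups were fitted (0.0542). Batch 2 alone also gave no call against ONH for Gal3st1 (0.054), Trf (0.0973) and Lpar1 (0.1245). Klk6, a secreted protease gene, and Galnt6, the gene of an enzyme that starts O-glycan chains, were as far apart as the sheath genes (-10.57 and -10.17).

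Within the nerve, the 29 genes had higher estimates in ONP than in ONH without exception, with a median log2 difference of 1.01 (2.02-fold) against -0.02 over all genes. With the batch as a term and no pairing, 6 of the 29 passed as higher in ONP and 0 as lower, beside 3.04% of genes tested that were higher, and 21 had an unadjusted p below 0.05. Same-numbered ONH and ONP libraries deviated together, and with the replicate number as a block 26 of 29 passed (background 11.1%), with a median of 1.02. Fitted on batch 1 alone, without the block, 15 of 29 passed (background 8.01%). The count without the block rested on single libraries: it was 2 without ONH replicate 1, 3 or 7 or ONP replicate 7, 3 without ONH replicate 5 or ONP replicate 2 or 4, 11 without ONH replicate 4 and 10 without ONP replicate 5. The number over all genes moved too, at 192 of 16302 without ONH replicate 1 and 689 of 16233 without ONH replicate 4. With the block the count among the 29 lay between 23 and 27 when any 1 pair was left out. Without pair 7, which holds the ONH library with the high rod genes, 26 of 29 passed with the block.

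The largest estimates in this comparison were those of the lipid enzyme genes Fa2h and Ugt8a and the transcription factor genes Sox10 and Myrf. Fa2h ranged from 54.7 to 217 CPM in ONH (median 94.0) and from 150 to 576 in ONP (median 437), with ONP higher in all 7 pairs. Its log2 difference was 1.88 ± 0.37 (SE, edgeR adjusted p = 0.0048) without the block and 1.90 ± 0.27 (0.00144) with it. Ugt8a, which acts in the same pathway, lay at 67.8 to 277.5 CPM in ONH and 163 to 732 in ONP and passed with the block (1.62 ± 0.24, adjusted p = 0.00165) but not without it (0.0539), while batch 1 alone (0.0209) and DESeq2 (0.0205) also called it. Sox10 ranged from 17.5 to 78.4 CPM in ONH (median 44.0) and from 74.8 to 214 in ONP (median 136.5), so that only the highest ONH library exceeded the lowest of ONP. It differed by 1.498 ± 0.26 (adjusted p = 0.00174) without the block and 1.57 ± 0.17 (0.000595) with it. Myrf passed with the block (1.36 ± 0.20, adjusted p = 0.00173), and so did Nkx6-2 (0.84 ± 0.21, 0.0161), Gal3st1 (1.16 ± 0.23, 0.00624) and Aspa (1.09 ± 0.16, 0.00165). The estimates of Nkx6-2, Gal3st1 and Aspa lay below the highest of the sheath and adhesion genes with the block (1.23).

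Of the 14 sheath and adhesion genes, 2 passed without the block and 13 with it. Cnp lay at 2126 to 5355 CPM in ONH (median 3446) and 3373 to 9095 in ONP (median 7662) and passed both ways (0.95 ± 0.25, edgeR adjusted p = 0.0263, and 0.94 ± 0.19, 0.00674). Pllp, the gene of the sheath proteolipid plasmolipin, passed both ways as well (1.02 ± 0.26, adjusted p = 0.0242, and 1.05 ± 0.18, 0.00343). Mbp passed with the block (0.92 ± 0.21, adjusted p = 0.0114) but not without it (0.93 ± 0.39, 0.1496). Ermn, which encodes a cytoskeletal protein of the sheath, and Cldn11 had the largest estimates in this role with the block (1.20 ± 0.20 and 1.23 ± 0.21). Hapln2, which encodes a link protein of the nodes of Ranvier, averaged 87.0 ± 44.2 CPM in ONH and 196 ± 82.1 in ONP (1.14 ± 0.21 with the block). Ppp1r14a, the gene of a myosin phosphatase inhibitor, was the member of this role that did not pass (0.62 ± 0.21, adjusted p = 0.0581).

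All 3 receptor genes passed with the block, as did 3 of the 5 other enzyme and binding protein genes. S1pr5, a sphingosine 1-phosphate receptor gene of oligodendrocytes, ranged from 79.9 to 253 CPM in ONH and from 138 to 390 in ONP (1.01 ± 0.27, edgeR adjusted p = 0.028 without the block). Galnt6 also passed without the block (0.97 ± 0.26, adjusted p = 0.0321). Trf, the gene of the iron carrier transferrin, passed with the block (0.58 ± 0.17, adjusted p = 0.0326). Klk6 lay at 244 to 1378 CPM in ONH and 236 to 1250 in ONP, nearly the same range, and did not pass (0.37 ± 0.17, adjusted p = 0.148 with the block). Qdpr did not pass either (0.40 ± 0.19, adjusted p = 0.163). Whether the smaller estimates of Klk6 and Qdpr differ from that of Fa2h was not tested.

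**Figure D2:**
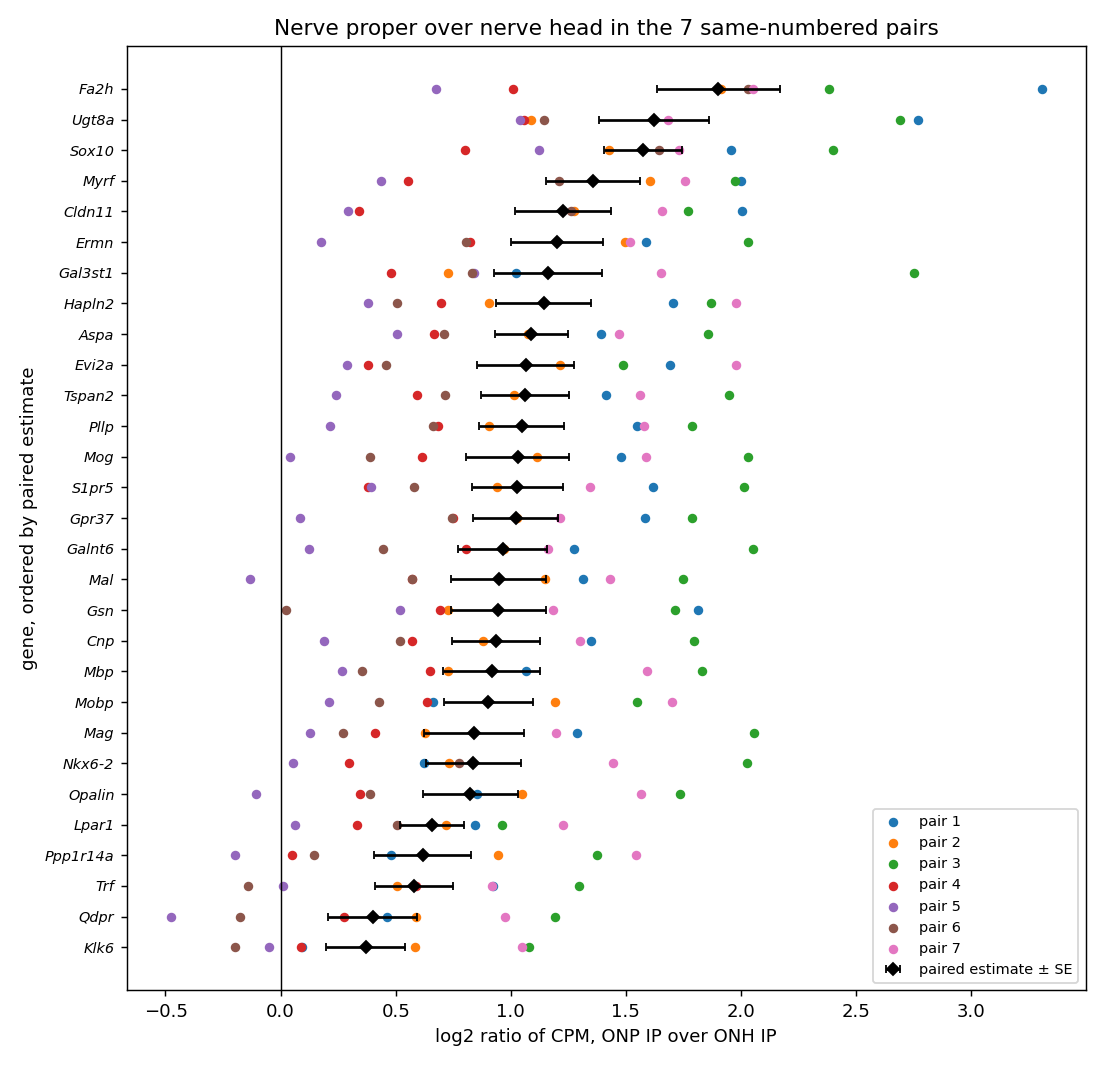
Log2 ratio of CPM in ONP IP over ONH IP for each of the 29 genes in the 7 same-numbered pairs (coloured points), with the paired edgeR estimate and its SE (black diamonds). Points of pair 5 lie nearest to 0 for most genes, those of pair 3 are mostly farthest to the right, and all diamonds are above 0.

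The size of the difference varied between pairs. The median fold over the 29 genes was 2.63 in pair 1, 1.96 in pair 2, 3.56 in pair 3, 1.51 in pair 4, 1.16 in pair 5, 1.43 in pair 6 and 2.91 in pair 7. All 29 genes were higher in ONP in pairs 1, 2, 3, 4 and 7, 26 in pair 6 and 24 in pair 5. In all, 23 genes were higher in ONP in every pair, against 9.4% of all genes, 4 in 6 pairs, and Klk6 and Qdpr in 5.

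Within a region the levels of most of the genes varied together from library to library. ONP replicate 5 was the lowest ONP library for 27 of 29 genes, at a median of 0.418 of the group mean. ONH replicate 3 was the lowest ONH library for 17 genes (0.537 of the mean), and ONH replicate 4 the highest for 16 (1.46 times the mean). The correlation of each gene with the mean of the other 28, on log2(CPM + 1) centred within ONH and ONP over the 14 nerve libraries, ran from 0.369 for Lpar1 and 0.477 for Ppp1r14a to 0.966 for S1pr5 and 0.979 for Mal. These libraries share their scaling, and the values are a description. The 12 astrocyte genes were highest and the 10 microglia genes lowest in replicate 5 of each region. The 29 genes summed to 32889 CPM in ONP replicate 5, the lowest in ONP. In ONH they summed to 28727 CPM in replicate 5, but were lower in replicates 3 (27512) and 7 (26520). The astrocyte genes summed to 23624 CPM in ONH replicate 3 and 7287 in ONH replicate 7. The part of cell makeup in these differences was not tested.

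In the retina the question is whether IP raises or depletes these genes against input. Only 17 of the 29 had enough counts to be tested, and 0 passed in either direction, as did 0% of the 15181 genes tested. An unadjusted p below 0.05 was found for 4 of the 17. DESeq2 called 4 members as higher in IP (background 5.64%), namely Trf, Gsn, Cnp and Aspa, and limma-voom called 0. Trf ranged from 5.23 to 13.7 CPM in input (median 10.1) and from 13.4 to 97.9 in IP (median 43.6), with IP replicates 2, 3 and 4 at 73.4, 66.7 and 97.9 and the other IP libraries at 20.5 or less (log2 difference 2.42 ± 0.54, edgeR adjusted p = 0.057). Gsn had the same order, with 122, 158 and 211 CPM in IP replicates 2, 3 and 4 and 28.99 to 43.1 in the others, beside 2.56 to 31.2 in input (2.39 ± 0.63, adjusted p = 0.0673). Cnp lay at 69.0, 68.4 and 76.1 CPM in these 3 libraries, at 28.99 to 45.2 in the other IP libraries and at 15.5 to 33.1 in input (1.11 ± 0.30, adjusted p = 0.0684). The 12 astrocyte genes were highest in the same 3 libraries, summing to 20474, 30488 and 35081 CPM. They summed to 6740 to 9736 CPM in the other retina IP libraries and to 4037 to 6653 CPM in input. The 8 retinal ganglion cell genes summed to 1991, 1521 and 925 CPM in IP replicates 2, 3 and 4. In IP replicates 1, 5 and 6 they summed to 5128, 4766 and 5075 CPM, within the input range of 3891 to 8920 CPM. The part of the astrocyte and ganglion cell genes in these values was not tested. Leaving out IP replicate 1 gave edgeR calls for Trf (adjusted p = 0.0322), Gsn (0.0463) and Cnp (0.0408), beside 341 of 15273 genes tested. Leaving out IP replicate 5 gave a call for Trf (0.0395), beside 226 of 15556 genes.

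Aspa was also higher in IP replicates 2, 3 and 4 (1.49 to 7.72 CPM) than in the other IP libraries (0.388 to 1.35). Its levels were low throughout (3.04 ± 1.03, edgeR adjusted p = 0.1034). Of the genes with a mean of 10 CPM or more in a retinal group, the other 5 did not have this order. Gpr37 averaged 97.5 ± 59.3 CPM in input and 107 ± 91.1 in IP, with IP replicates 3 and 4 lowest (38.31 and 28.97) and IP replicate 6 highest (273). Lpar1 was lowest in the same 2 libraries (5.82 and 9.21 CPM) and highest in IP replicate 6 (63.8). Qdpr was nearly level, at 195 ± 37.9 CPM in input and 203 ± 26.9 in IP (0.15 ± 0.21, edgeR adjusted p = 0.745). Mbp averaged 25.1 ± 16.5 CPM in input and 27.9 ± 19.9 in IP, with 0.33 CPM in input replicate 1, and its estimate of 0.22 turned to -0.03 without that library and to -0.17 without IP replicate 5. Tspan2 averaged 23.6 CPM in input and 14.2 in IP (-0.67 ± 0.49, adjusted p = 0.468). The other 21 genes averaged less than 10 CPM in both retinal groups.

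**Figure D3:**
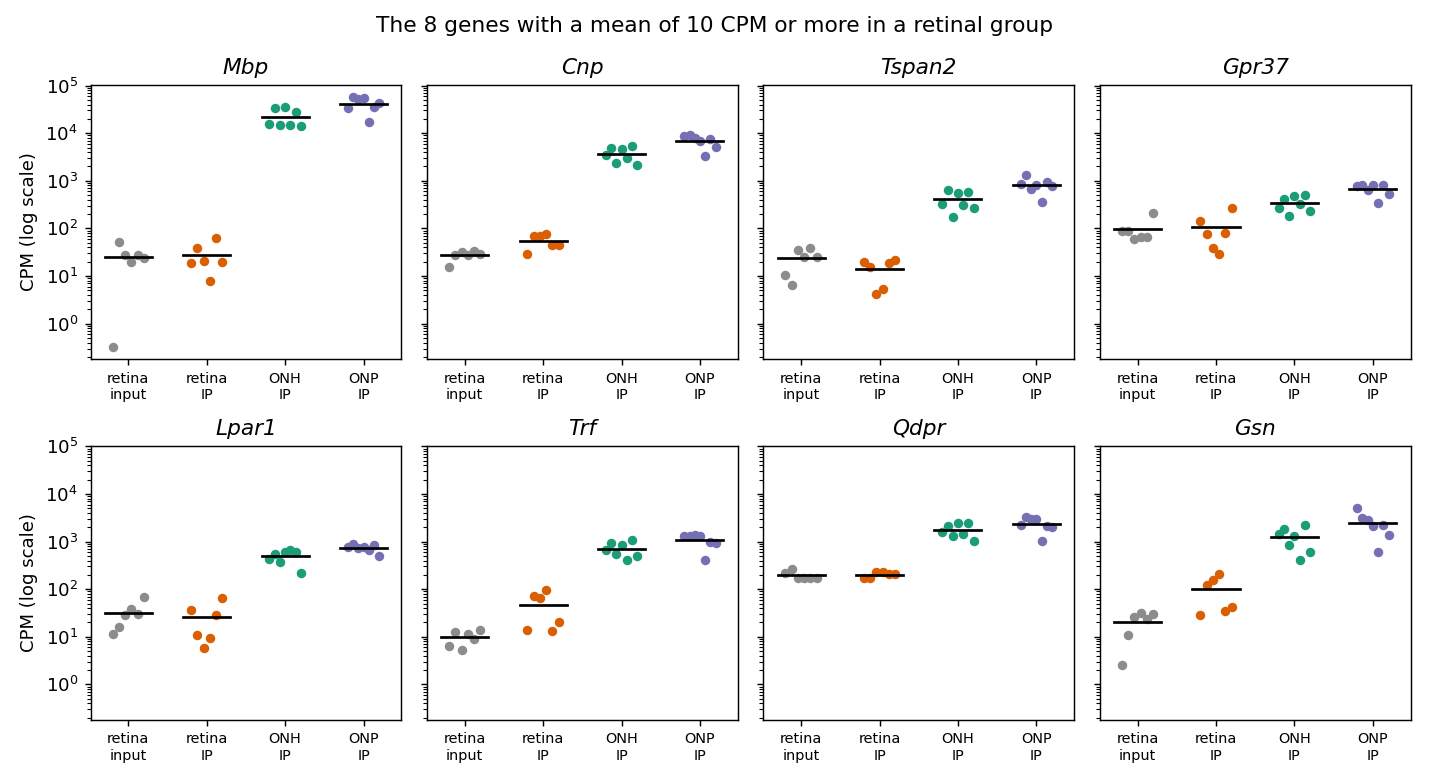
CPM on a log axis of the 8 genes with a mean of 10 CPM or more in a retinal group, by group, with 1 point per library and a bar at the mean (n = 6, 6, 7 and 7). Retinal points lie below nerve points for 7 of the 8, by the widest margin for Mbp, while Gpr37 overlaps, and Trf and Gsn in retina IP split into 3 higher and 3 lower libraries.

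Other genes of the pathway, from lists that hold none of the 29, gave the following counts. Of all genes tested, 3.04% were higher in ONP than in ONH without the block and 11.1% with it. In retina IP 21.1% of genes tested were lower than in ONH and 19.9% lower than in ONP. Of 20 further sheath and paranode genes, 5 were higher in ONP than in ONH without the block and 17 with it, with a median of 0.97, and 0 were lower. Anln, which encodes the septin-binding protein anillin, had a log2 difference of 1.91 ± 0.44 (edgeR adjusted p = 0.0123), and Tppp, a tubulin polymerization protein gene, of 1.52 ± 0.45 (0.044). In retina IP 14 of the 20 were lower than in ONH and 17 lower than in ONP, led by the connexin genes Gjc3 (-10.38 and -11.58) and Gjb1 (-9.53 and -10.64). Of 8 lineage factor genes, 2 were higher in ONP without the block, Sox8 (1.65 ± 0.39, adjusted p = 0.0151) and Nkx2-2 (1.30 ± 0.38, 0.0408), and 7 with it. In retina IP 5 of the 8 were lower than in ONH and in ONP. Of 12 further lipid genes, 3 were higher in ONP without the block (Abca2, Elovl5 and Far1) and 10 with it. In retina IP 4 of these 12 were lower than in ONH, and 2, Far1 (1.17 ± 0.24, adjusted p = 0.000968) and Gba2 (1.12 ± 0.42, 0.0433), were higher, beside 12.7% of genes tested. Against ONP 6 of the 12 were lower and 0 higher. Without ONH replicate 7 and without the block, the counts higher in ONP were 2 of the 20 sheath, 1 of the 8 lineage and 1 of the 12 lipid genes. Of all genes tested there, 349 of 16145 were higher in ONP.

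Markers of oligodendrocyte precursors were counted apart. Of all genes tested, 3.04% were higher in ONP without the block and 11.1% with it. In retina IP 21.1% were lower and 12.7% higher than in ONH. Of 10 such genes, 3 were higher in ONP than in ONH without the block and 6 with it, namely for the former Gpr17 (1.81 ± 0.28, edgeR adjusted p = 0.000697), Neu4 (1.66 ± 0.33, 0.00604) and Lhfpl3 (1.15 ± 0.29, 0.0194). Gpr17, a receptor gene of newly forming oligodendrocytes, averaged 44.5 ± 25.3 CPM in ONH and 151 ± 37.3 in ONP. In retina IP 7 of the 10 were lower than in ONH, and Pdgfra was higher (4.84 ± 0.87, adjusted p = 0.000317), at 151 to 1400 CPM in retina IP and 17.2 to 61.9 in ONH. Pdgfra, the receptor gene for platelet-derived growth factor, is also known as a marker of retinal astrocytes.

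The lists of other cell types gave these counts in the same comparison of ONP with ONH. In it, 4.43% of genes tested were lower in ONP without the block and 10% with it. Higher in ONP were 3.04% without the block and 11.1% with it. Of 12 astrocyte genes, 0 passed between ONP and ONH without the block, and with it 4 were higher and 1 lower (median 0.07). Of 10 microglia genes, 4 were higher in ONP with the block and 0 without. Of 8 fibroblast genes, 4 were lower in ONP with the block and 0 without. Of 8 endothelial genes, 1 was lower in ONP with the block and 0 without. All 10 rod genes were lower in ONP with and without the block, as were all 10 without ONH replicate 7 (median -3.78) and 9 with the block and without pair 7. Among 10 Schwann cell genes, those of the other myelinating cell type, 8 were tested and 2 were lower in ONP with the block (Scn7a and Dhh), and 1 with the block and without pair 7. The Schwann list summed to 78.7 to 133 CPM in ONH and 52.7 to 121 CPM in ONP. Between retina and nerve, several lists of cells other than oligodendrocytes were also lower in retina IP, but not all. Of all genes tested, 21.1% were lower in retina IP than in ONH and 19.9% lower than in ONP. Against ONH, 9 of 10 microglia genes (median -4.22), 7 of 8 fibroblast genes (-6.87), 6 of 8 endothelial genes (-3.08) and 5 of 12 astrocyte genes (-1.01) were lower. Against ONP the counts were 10 of 10, 7 of 8, 5 of 8 and 6 of 12. All 8 retinal ganglion cell genes went the other way. They were higher in retina IP than in ONH (median 4.23) and in ONP (5.65), beside 12.7% and 12.9% of genes tested. The 10 rod genes were all lower than in ONH, but only 1 was without ONH replicate 7, and 0 passed against ONP. Of 8 Schwann cell genes tested, 2 were lower than in ONH, and 2 were lower and 1 higher than in ONP, near the shares of all genes tested. In retina IP 1 astrocyte gene was higher than in ONH and in ONP, and 1 fibroblast and 1 endothelial gene were higher than in ONP. The part of these cell types in the values of the 29 genes was not tested.

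**Figure D4:**
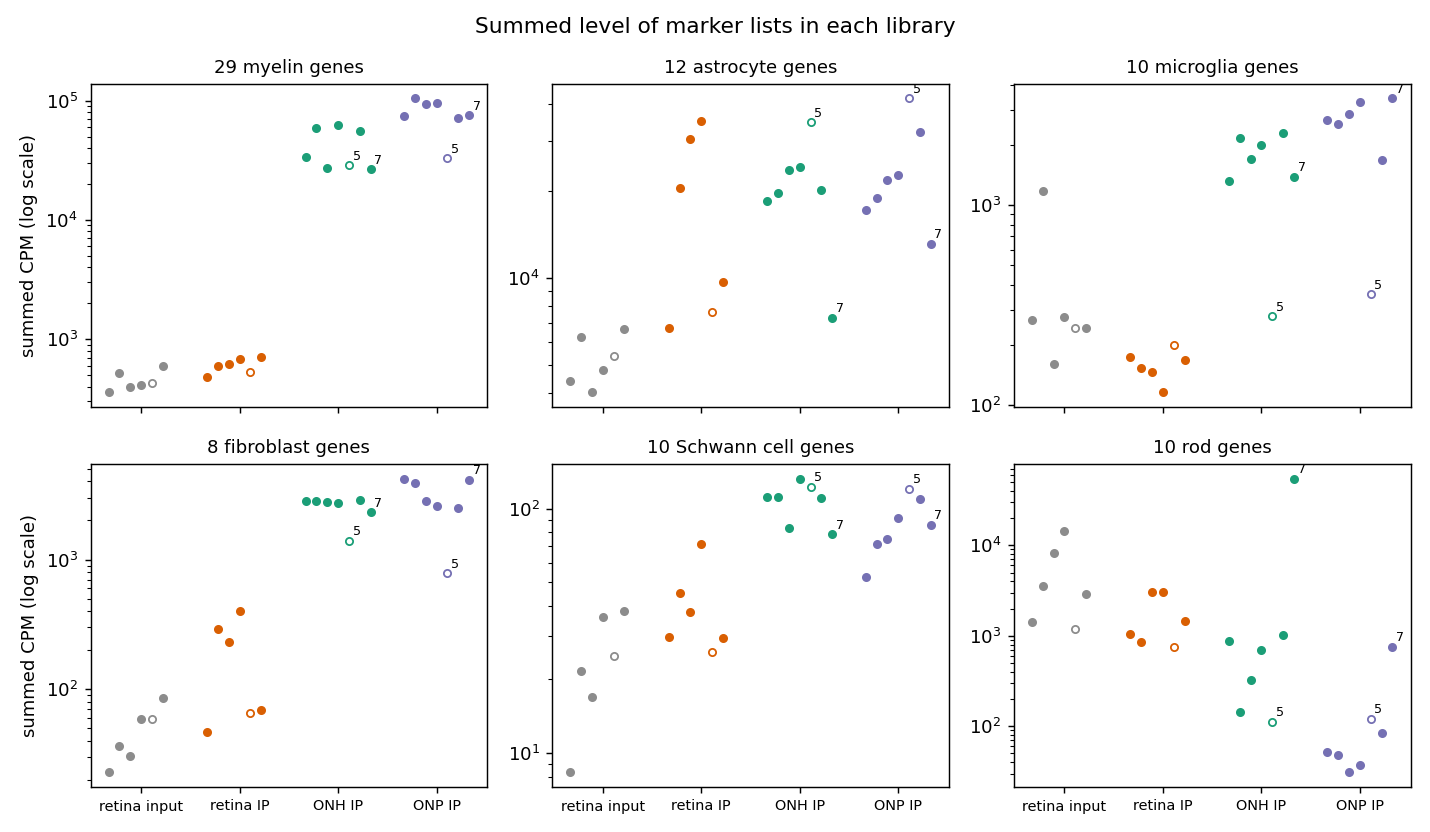
Summed CPM on a log axis of the 29 genes and of 5 marker lists in each library, by group, with replicate 5 as open points and replicates 5 and 7 of the nerve numbered. The 29 genes are low and the astrocyte genes high in replicate 5 of ONP, and the rod genes are highest in ONH replicate 7.

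Of the 29 genes, 11 share exon sequence with another annotated gene (mm10, GENCODE annotation), among them Cnp with Dnajc7, Ermn with Galnt5, Nkx6-2 with Inpp5a and Evi2a with Evi2. Whether strand was used in counting is not given in the sources used here, so reads of such pairs cannot be told apart with certainty.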

How the data were processed

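Whole-transcript RNA was measured in 26 mouse libraries made with an ultra-low input kit, per the labels' protocols. Estimated counts per gene were deposited as whole numbers, made by the authors with Salmon 1.6.0 and mm10 per the submitters' processing notes. The 29 members and the other lists were chosen with earlier results of these data known. Groups came from the sample titles. The counts were rounded and tested with edgeR 4.0.16 (R 4.3.3) by its quasi-likelihood F test, with TMM scaling, filterByExpr (minimum count 10, minimum total 15) and Benjamini-Hochberg adjustment over all genes tested at a threshold of 0.05. Regional comparisons used all 20 IP libraries with sequencing batch as a term. Retina IP against input used the 12 retinal libraries. The SE is the log2 difference divided by the square root of F. Depth was 11164619 to 27431026 counts, so a gene with few counts in the retina has a large counting error.

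Same-numbered ONH and ONP libraries correlated in their deviations from the group means at 0.1248 to 0.5432 over 7 pairs and 17173 genes (0.1206 to 0.545 over the 6 pairs of batch 1), and 11 of 14 libraries correlated best with their own number. The numbers were therefore taken to pair the libraries. This rests on the values, as no label says what a number marks. Of the other lists, up to 3 passing genes per direction were eligible to be named, by size of difference. The genes most like the members were the 10 with the highest Pearson correlation with their mean over the nerve libraries, with a mean of at least 10 CPM. Not every eligible gene is reported here. The code was tested on simulated data. Alternatives were RLE scaling, DESeq2 1.42.0, limma-voom (limma 3.58.1), keeping genes with low counts, other sets of libraries, the replicate block and leaving out each library. The replicate block without each pair, the fit without both optic nerve replicate 5 libraries and that without retina input replicates 1 and 2 were chosen after seeing the data.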

Additional observations from a re-analysis of the deposited data

Results flagged for a closer look

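Among 73 combinations of a member and a group with a mean of at least 10 CPM, 6 held a library far from the others of its group by Dixon's test, and chance gives about 1 in 20. Cnp was low in retina input replicate 1 (15.5 CPM, others 27.3 to 33.1). Pllp was low in ONP replicate 5 (59.6 CPM, others 104 to 126), and so was Klk6 (236 CPM, others 882 to 1250). Hapln2 was high in ONH replicate 4 (177 CPM, others 43.8 to 96.6). Ppp1r14a was high in ONP replicate 7 (220 CPM, others 16.3 to 57.0). Gpr37 was high in retina input replicate 6 (216 CPM, others 59.0 to 89.8).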

How the results depend on the processing

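The count of members higher in ONP than in ONH (6) was 12 with DESeq2, 17 with limma-voom, 3 with all 26 libraries in one fit, 21 with only these groups fitted, 15 in batch 1 alone and 26 with the replicate block. Genes tested that were higher in ONP numbered 498 of 16355 beside the count of 6. They numbered 876 of 16736 with DESeq2, 663 of 16355 with limma-voom and 126 of 17173 with all 26 libraries. With only these groups fitted they numbered 1161 of 14799, in batch 1 alone 1181 of 14753 and with the replicate block 1637 of 14799. The count of members was 6 with RLE scaling (492 of 16355 genes), with no low-count filter (320 of 31335) and with no batch term (366 of 16355). It was 8 without both replicate 5 libraries (420 of 16229), and 2 to 11 when 1 library was left out. With the replicate block and 1 pair left out it was 24, 24, 23, 25, 27, 26 and 26 for pairs 1 to 7. No member was called lower in ONP under any of these. Members lower in retina IP than in ONH numbered 28 to 29, and lower than in ONP 28 to 29, when 1 library was left out. Retina and nerve libraries of the same number did not deviate together (lowest correlation -0.1004 with ONH and -0.0991 with ONP). A replicate block without the batch term called 29 members lower in each comparison, beside 4853 (ONH) and 4891 (ONP) of 16355 genes tested. A block with the batch term could not be fitted, because the retina, batch and pair 7 terms are not separable. In retina IP against input, same-numbered libraries correlated at -0.1603 to 0.288. The count of members higher in IP (0) stayed 0 with the replicate block and with limma-voom. It was 1 with no low-count filter (152 of 27961 genes tested) and 4 with DESeq2 (1007 of 17849). All 26 libraries in one fit gave 5 (1419 of 17173). Leaving out 1 library gave 0 to 3, with the 3 found without IP replicate 1 (341 of 15273). Estimates that changed sign, none of which passed, were Mbp (-0.03 without input replicate 1), Gpr37 (-0.0275 with limma-voom, -0.023 with the replicate block) and Lpar1. Over the fits that left out 1 retinal library, Mbp ran from -0.17 to 0.52, Gpr37 from -0.32 to 0.60 and Lpar1 from -0.74 to 0.10. The cause of these changes was not tested. CPM by plain totals moved none of the 116 group means by more than 1 SD. Genes under 10 CPM in the retina rest on few counts.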

Other observations

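Genes outside the 29 whose levels followed the mean of the members most closely over the 14 nerve libraries (log2(CPM + 1), centred within ONH and ONP, 9365 genes compared) included Tnfaip6 (Pearson r = 0.977), Chn2 (0.967), Aplp1 (0.966), Epb41l3 (0.966) and Car2 (0.965). Apln, Cdk18, Otud7b and Litaf had r of 0.962 to 0.963. The libraries share their scaling and depth, and the correlations are a description. Aplp1 averaged 3746 CPM in ONH and 6939 in ONP, against 661 in retina IP. Epb41l3 averaged 163 CPM in ONH, 385 in ONP and 211 in retina IP, so it followed the members within the nerve and was not near 0 in the retina.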
